A study of Homo sapiens with 12 samples.

Results

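The genes described here carry gemcitabine into the cell, activate it, inactivate it or make the deoxynucleotides that it competes with. They were taken as the 10 genes of the count table whose symbol is SLC29A1, SLC29A2, SLC28A1, SLC28A3, DCK, CDA, DCTD, RRM1, RRM2 or SAMHD1, out of 60649 genes. Of the 10, 9 passed the filter on low counts, which kept 21114 genes, and SLC28A1 did not. RNA was sequenced from 2 established leiomyosarcoma lines, SK-LMS-1, from a metastasis, and SK-UT-1B, from a primary uterine tumor with epithelial-like morphology. SK-LMS-1 was exposed for 72 h to the vehicle dimethyl sulfoxide (DMSO, 2 libraries numbered 2-1 and 2-3 and 2 numbered 4-1 and 4-2), to MK-0752 alone (2-2 and 2-3) or to MK-0752 with gemcitabine and docetaxel, called the combination (4-1 and 4-2). SK-UT-1B was exposed for 72 h to DMSO (4-1 and 4-2) or to the combination (3-1 and 3-3). MK-0752 inhibits gamma secretase, the protease that releases the active part of the Notch receptors. Docetaxel, a taxane, acts on microtubules.

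Per the labels and the study's methods, each exposure was set at the concentrations estimated to lower viability by the same share in each line. The gemcitabine concentration in the combination was therefore lower for SK-UT-1B than for SK-LMS-1, as were those of MK-0752 and docetaxel, while MK-0752 alone was given to SK-LMS-1 at a higher concentration than in the combination. No library was exposed to gemcitabine alone, so its part in the combination cannot be told apart from those of the other agents. Each line is a single cell line, so what differs between the lines cannot be assigned to primary or metastatic origin, and line and dose cannot be told apart. The labels do not say that libraries came from separate cultures, so p-values measure only the spread between these libraries.

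Gemcitabine is a deoxycytidine analog that crosses the membrane mainly through equilibrative nucleoside transporters and, where present, concentrative ones. Deoxycytidine kinase adds the first phosphate, the step that limits its activation, and further kinases make the diphosphate and the triphosphate that enters DNA. Cytidine deaminase inactivates the nucleoside and deoxycytidylate deaminase acts on the monophosphate, while the diphosphate inhibits ribonucleotide reductase, which makes the deoxynucleotides that compete with the drug. SAMHD1 hydrolyzes deoxynucleoside triphosphates.

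CDA had counts in every SK-LMS-1 library and 0 counts in every SK-UT-1B library, and SAMHD1 exceeded its SK-UT-1B level 3.82-fold after DMSO. DCK and RRM1 were 2.49-fold and 2.14-fold below their SK-UT-1B levels. SLC29A1, the main uptake carrier, did not pass the test between the lines, though its DMSO libraries did not overlap (adjusted p = 0.0527). SK-UT-1B, the line given the lower gemcitabine concentration, was the line without CDA counts, with less SAMHD1 and, after DMSO, with more DCK. After DMSO it also had more RRM1, a subunit of the enzyme that makes the competing deoxynucleotides. The inactivating enzyme DCTD was likewise higher in SK-UT-1B after DMSO (adjusted p = 0.000736, under the fold required for a call). After the combination DCK and RRM1 did not pass the test between the lines (adjusted p = 0.217 and 0.149). With 2 lines a relation between these levels and the dose was not tested. After exposure, RRM2 was 2.26-fold lower in SK-LMS-1 after MK-0752. In SK-UT-1B the combination libraries had 1.86-fold less RRM1 and RRM2, which passed the p threshold but not the fold, and RRM1 did not keep the p threshold in 11 of 12 fits with 1 library left out.

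Promoter windows are shown for 4 genes, CDA and SAMHD1, which separated the lines, and RRM1 and RRM2, the subunits of the enzyme that gemcitabine inhibits. Each window runs 5′ to 3′ from 250 bases before to 50 bases after a RefSeq start on GRCh38.p14, and 8 of the 10 genes have such an entry (not SLC29A2 and SLC28A3). Capitals mark CCAAT on either strand, the letters of the CCAAT box, and the words TTTCCCGC, TTTCGCGC, TTTGCCGC and TTTGGCGC on either strand, which E2F factors can bind. The CDA window is chr1:20588847-20589146 on the plus strand, that of SAMHD1 chr20:36951659-36951958 on the minus strand, that of RRM1 chr11:4094435-4094734 on the plus strand and that of RRM2 chr2:10122489-10122788 on the plus strand.
CDA: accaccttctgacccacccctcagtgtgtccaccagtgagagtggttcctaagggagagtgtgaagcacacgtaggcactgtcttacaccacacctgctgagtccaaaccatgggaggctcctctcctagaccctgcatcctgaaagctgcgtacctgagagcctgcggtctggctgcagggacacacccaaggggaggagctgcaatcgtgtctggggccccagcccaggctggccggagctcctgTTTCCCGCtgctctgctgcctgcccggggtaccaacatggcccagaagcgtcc
SAMHD1: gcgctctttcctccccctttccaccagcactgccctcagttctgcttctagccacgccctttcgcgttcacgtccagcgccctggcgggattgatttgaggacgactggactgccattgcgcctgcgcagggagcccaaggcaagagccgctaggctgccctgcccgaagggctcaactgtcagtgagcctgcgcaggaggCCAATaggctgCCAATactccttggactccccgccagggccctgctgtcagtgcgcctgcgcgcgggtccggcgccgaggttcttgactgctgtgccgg
RRM1: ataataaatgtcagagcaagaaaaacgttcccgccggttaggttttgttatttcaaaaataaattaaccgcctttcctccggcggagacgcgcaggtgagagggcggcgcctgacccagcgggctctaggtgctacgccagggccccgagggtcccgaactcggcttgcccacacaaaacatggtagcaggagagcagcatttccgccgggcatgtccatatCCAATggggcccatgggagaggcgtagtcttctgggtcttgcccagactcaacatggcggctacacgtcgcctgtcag
RRM2: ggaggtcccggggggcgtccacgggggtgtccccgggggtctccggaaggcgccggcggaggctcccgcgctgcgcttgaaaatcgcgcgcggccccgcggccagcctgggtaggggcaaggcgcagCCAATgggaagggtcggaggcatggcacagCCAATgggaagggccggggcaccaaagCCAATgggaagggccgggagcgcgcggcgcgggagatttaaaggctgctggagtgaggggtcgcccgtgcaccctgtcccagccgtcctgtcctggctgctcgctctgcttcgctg

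Among the 35116 promoter windows of the table, 34.6% held CCAAT and 3.32% held one of the E2F words. The RRM2 window held CCAAT 3 times, and 3.26% of all windows held it as often or more. SAMHD1 held it 2 times and RRM1 once, while CDA held none. A second RRM2 start in the table, with the window chr2:10122318-10122617, held CCAAT once. The CDA window held 1 E2F word and 8 CG pairs, against a median of 14 over all windows, and 41.6% of windows held as few or fewer. DCK, the kinase of the first step, held 1 E2F word and 37 CG pairs in its window at chr4:70993399-70993698. The letters are a description of these windows, and binding was not measured.

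Library totals ran from 25250057 to 40709885 counts, and 3 counts in a library, taken as the floor, stand for 0.0777 to 0.123 CPM (counts scaled to a common library total after TMM normalization). The floor covers counting error only, and no molecular identifiers were counted. The 95% intervals of log2FC come from edgeR and include the spread between libraries. Between 54 and 845 genes had 0 counts in 1 library of a group and at least 50 in the other, so single counts of low genes such as SLC29A2 and SLC28A3 varied more than sampling of reads gives. Of the 8 smooth muscle markers examined, 6 had a value after DMSO, and 5 of these (SMTN, ACTA2, CALD1, CNN1 and TAGLN) were called higher in SK-LMS-1 and DES lower. Over all genes tested, 17.0% were called higher and 14.1% lower. DES was at 0 in every SK-LMS-1 library and MYH11 had at most 5 counts in any library, while DES was at 5.33 and 9.76 CPM in SK-UT-1B after DMSO. TAGLN was at 40.9 ± 3.97 CPM (SD, n = 4) after DMSO in SK-LMS-1 and at 0.411 ± 0.581 CPM (n = 2) in SK-UT-1B. Of 4 epithelial markers, KRT8 was at 0 in every SK-UT-1B library and at 87.0 to 109.5 CPM in SK-LMS-1, while EPCAM reached at most 1.04 CPM and CDH1 at most 3 counts in any library. In bulk RNA, fewer cells of a kind and less RNA per cell cannot be told apart.

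**Figure D1:**
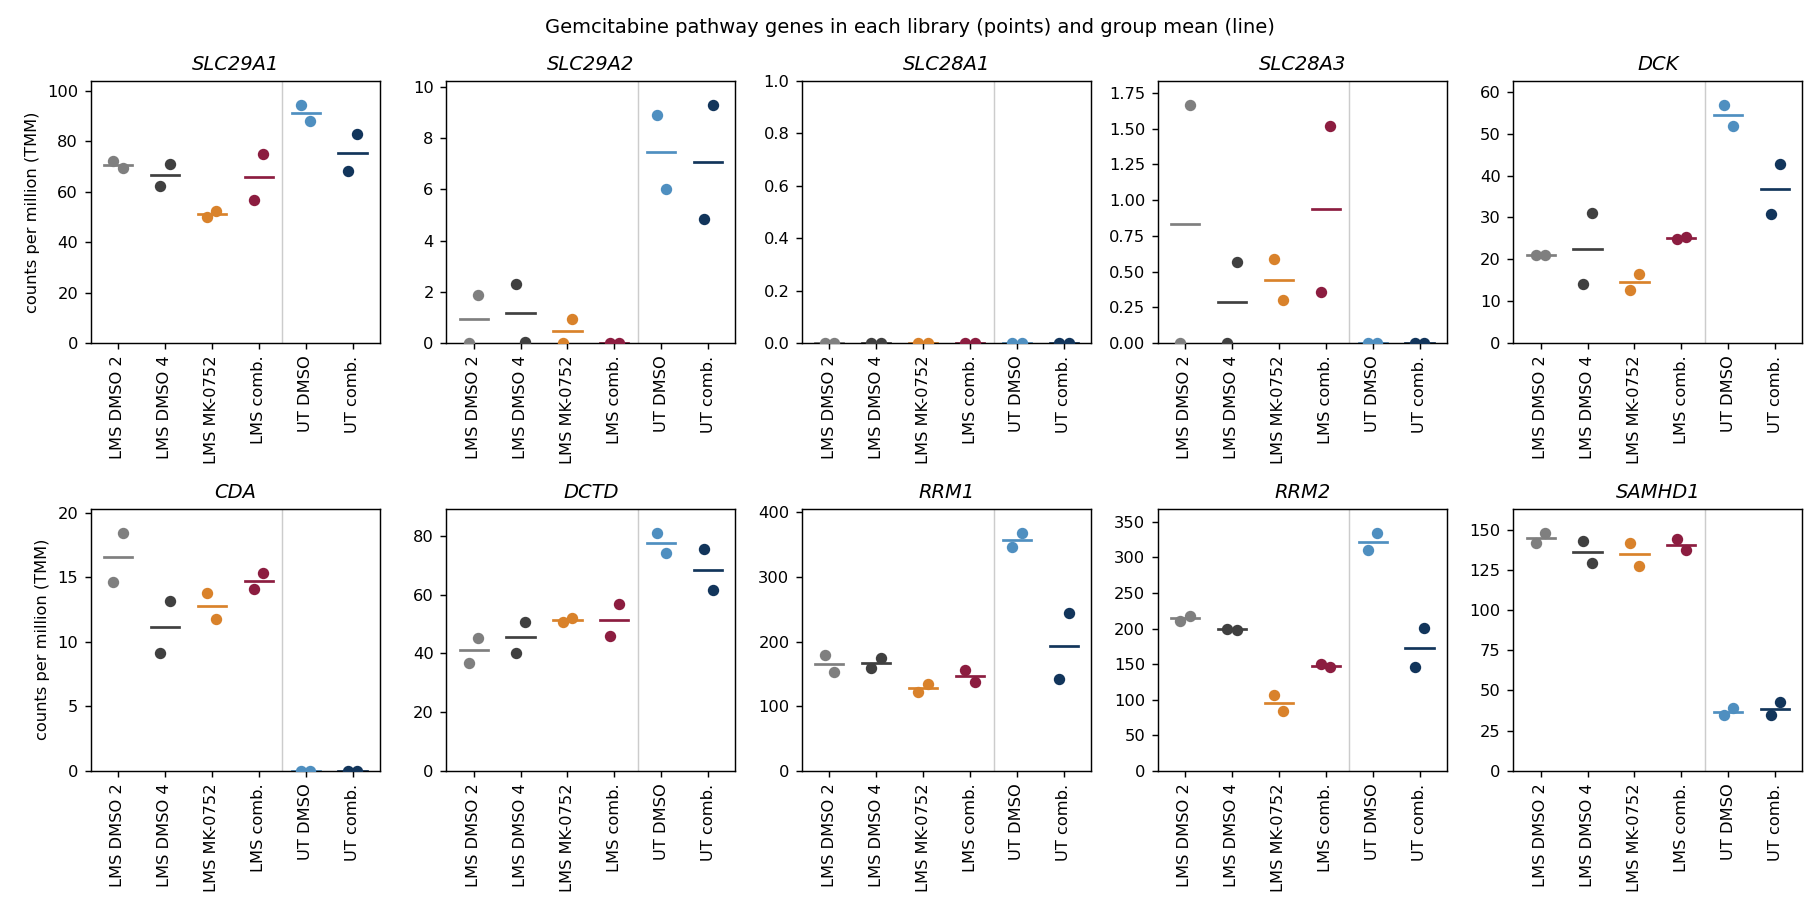
Level of each of the 10 genes in CPM (y axis, linear, with its own range in each panel) in every library (points) by group (x axis: LMS, SK-LMS-1; UT, SK-UT-1B; comb., combination), with a line at the group mean. CDA is at 0 in the 4 SK-UT-1B libraries, SAMHD1 separates the lines, and the RRM2 libraries of each exposure lie below those of DMSO, a difference called only after MK-0752.

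Uptake was examined first. SLC29A1 encodes ENT1, the equilibrative carrier held to bring in most of the drug, and lies at chr6:44219553-44234142 on the plus strand. After DMSO it was at 72.1 and 69.2 CPM in libraries 2-1 and 2-3 of SK-LMS-1 and at 62.2 and 70.9 CPM in 4-1 and 4-2, against 94.4 and 88.2 CPM in SK-UT-1B. The DMSO libraries of the lines did not overlap, but the log2 fold change (log2FC, SK-LMS-1 minus SK-UT-1B) of -0.41 (SE 0.17, 95% interval -0.76 to -0.07) had an adjusted p of 0.0527 in edgeR's quasi-likelihood test, within a range of 0.0216 to 0.154 over the alternatives, and was not called in any of them. Of the 6 alternatives with no library left out, 4 gave an adjusted p under 0.05. After the combination the lines overlapped (log2FC -0.20, SE 0.19, adjusted p = 0.468). A call required an adjusted p under 0.05 and an absolute log2FC of at least 1.

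SLC29A2, which encodes the second equilibrative carrier ENT2 (chr11:66362521-66372214, minus strand), was low in both lines. SK-UT-1B had 257 and 227 counts with DMSO and 177 and 262 with the combination. In SK-LMS-1 the 4 DMSO libraries had 0, 52, 57 and 2 counts, those with MK-0752 had 0 and 35, and those with the combination had 0 and 0. Every SK-UT-1B library (4.84 to 9.30 CPM) lay above every SK-LMS-1 library (0 to 2.31 CPM). The spread within SK-LMS-1 was wide, and the difference after DMSO (log2FC -2.83, SE 1.83) had an adjusted p of 0.253. It was called without SK-LMS-1 DMSO library 2-3 (adjusted p = 0.0374) and with no filter beyond 1 count (0.0155), within a range of 0.0155 to 0.441 over the alternatives. After the combination the level in SK-UT-1B was at least 66.3-fold above the floor in SK-LMS-1, with an adjusted p of 0.0631 that ran from 2.05e-06 to 0.21 over the alternatives. It was called in 4 of 5 alternatives, DESeq2 among them, and in 5 of 12 fits with 1 library left out (SK-LMS-1 DMSO 2-1, 2-3 or 4-1, or MK-0752 2-2 or 2-3). SLC29A2 shares 279 exonic bases with B4GAT1-DT on the opposite strand, which had 5 to 125 counts, and the strand setting of the counts is not given in the sources used here, so its values are uncertain.

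The concentrative carriers were low or had no counts. SLC28A1, which encodes CNT1, had 0 counts in all 12 libraries, which allows at most 0.0777 to 0.123 CPM, by library. SLC28A3, which encodes CNT3, had 0 counts in the 4 SK-UT-1B libraries. In SK-LMS-1 the 4 DMSO libraries had 0, 46, 0 and 22 counts, those with MK-0752 had 21 and 11, and those with the combination had 12 and 37, so that DMSO libraries lay on both sides of the exposed ones. After DMSO the mean in SK-LMS-1 was at least 6.10-fold above the floor in SK-UT-1B (adjusted p = 0.150), and after the combination at least 9.97-fold (adjusted p = 0.155). The bound after DMSO rested mostly on library 2-3 (1.67 CPM), with 4-2 at 0.570 CPM and the others at 0.

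Among 3 other carriers of the same families, SLC28A2 had 0 counts in every library and SLC29A4 was called between the lines. SLC29A4, a transporter of monoamines and adenosine also named PMAT, had 2.90 CPM in SK-LMS-1 and 81.5 CPM in SK-UT-1B after DMSO, a 28.5-fold difference (adjusted p = 0.00783), and differed 44.8-fold the same way after the combination (adjusted p = 0.0226).

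The transcript of DCK, the kinase of the first activation step, differed between the lines after DMSO. DCK (chr4:70992538-71030914, plus strand) was at 21.1, 21.1, 14.04 and 31.0 CPM in SK-LMS-1 after DMSO, against 56.9 and 51.9 CPM in SK-UT-1B. The highest SK-LMS-1 library lay below both SK-UT-1B libraries. The log2FC was -1.32 (SE 0.27, 95% interval -1.87 to -0.76, adjusted p = 0.000408), and DCK was called in all 18 alternatives. After the combination DCK was at 24.9 and 25.4 CPM in SK-LMS-1 and at 30.7 and 42.8 CPM in SK-UT-1B. The groups again did not overlap, but the log2FC of -0.55 (SE 0.32, 95% interval -1.21 to 0.12) had an adjusted p of 0.217. DCK shares 199 exonic bases with MOB1B on the same strand, which had 1564 to 5402 counts, so a part of its reads could not be assigned by position alone.

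CMPK1, the kinase held to add the second phosphate, went the other way. It was at 251.8 CPM in SK-LMS-1 and 177.6 CPM in SK-UT-1B after DMSO (log2FC 0.50, adjusted p = 0.0151, under the fold required) and was called after the combination (255.3 against 125.3 CPM, log2FC 1.03, adjusted p = 0.000148). Among the 8 genes of the further phosphorylation steps and of mitochondrial nucleoside kinases, TK2, the mitochondrial kinase that also takes deoxycytidine, differed 3.75-fold after DMSO with SK-LMS-1 above (51.0 against 13.5 CPM, adjusted p = 7.34e-07). NME4, a mitochondrial nucleoside diphosphate kinase, lay 6.02-fold below its SK-UT-1B level (adjusted p = 4.94e-07), and both were also called after the combination. The median log2FC of the 8 was -0.03 after DMSO, against 0.00 over all genes tested.

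Of the inactivating enzymes, CDA was called between the lines and DCTD was not. CDA (chr1:20589086-20618903, plus strand) had 511, 510, 226 and 508 counts in SK-LMS-1 with DMSO, 492 and 433 with MK-0752, and 470 and 374 with the combination. It had 0 counts in each of the 4 SK-UT-1B libraries, which allows up to 0.0796 to 0.107 CPM. Set against that floor, the SK-LMS-1 level of CDA after DMSO (13.9 ± 3.85 CPM, SD, n = 4) was at least 151.1-fold higher (adjusted p = 9.58e-09), and that after the combination (14.7 CPM) at least 156.4-fold (adjusted p = 1.52e-08). CDA was called in every alternative of both comparisons.

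DCTD, which deaminates the monophosphate (chr4:182890060-182917936, minus strand), went the other way. After DMSO it was at 36.6, 45.4, 40.2 and 50.8 CPM in SK-LMS-1 and at 81.1 and 74.2 CPM in SK-UT-1B, with no overlap. The log2FC of -0.85 (SE 0.18, adjusted p = 0.000736) was under the fold required for a call. After the combination the values were 45.7 and 56.6 CPM in SK-LMS-1 and 75.5 and 61.5 CPM in SK-UT-1B, with a log2FC of -0.42 (SE 0.21, 95% interval -0.87 to 0.03) and an adjusted p of 0.154.

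The nucleotidases that remove phosphate from nucleoside monophosphates were described as a group of 8. NT5E, the cell surface ectonucleotidase CD73, was at 2904 CPM in SK-LMS-1 and 7.21 CPM in SK-UT-1B after DMSO (log2FC 8.65, SE 0.76, adjusted p = 0.000104). It was also called after the combination (3172 against 10.5 CPM, adjusted p = 0.00018). NT5C1A had 0 counts in SK-LMS-1 after DMSO, and its SK-UT-1B level was at least 12.04-fold higher (adjusted p = 0.0293), while after the combination it was not called (adjusted p = 0.141). The cytosolic enzymes NT5C2 (log2FC 0.50, adjusted p = 0.0272) and NT5C3A (log2FC 0.84, adjusted p = 0.0147) passed the p threshold after DMSO but not the fold, and after the combination had adjusted p of 0.471 and 0.0899. NT5C3B, outside the rule for named genes and added after its values were seen, went the other way after DMSO (log2FC -0.83, adjusted p = 0.000287) and after the combination (log2FC -0.78, adjusted p = 0.00328), also under the fold. The median log2FC of the 7 with a value was 0.50 after DMSO.

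Of 5 pumps that export nucleotides or nucleosides, ABCG2 was called higher in SK-LMS-1 in both comparisons. It was at 11.6 CPM in SK-LMS-1 and 0.252 CPM in SK-UT-1B after DMSO (adjusted p = 0.000362), and at 16.9 CPM against counts at the floor after the combination, at least 179.1-fold (adjusted p = 4.41e-05). ABCC5 lay 2.69-fold below its SK-UT-1B level after DMSO (adjusted p = 0.00366) but was not called after the combination (log2FC -0.97, adjusted p = 0.105). ABCC4 lay 2.56-fold above its SK-UT-1B level after the combination (adjusted p = 8.96e-05) but was not called after DMSO (log2FC 0.70, adjusted p = 0.00761, under the fold).

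After DMSO both subunits of ribonucleotide reductase were at lower levels in SK-LMS-1, and only RRM1 was called. RRM1, the large catalytic subunit (chr11:4094707-4138932, plus strand), was at 178.4, 153.0, 159.6 and 175.0 CPM in SK-LMS-1 and at 345.5 and 368.6 CPM in SK-UT-1B, with a log2FC of -1.10 (SE 0.16, 95% interval -1.45 to -0.75, adjusted p = 1.74e-05). RRM2, the small subunit that is made in S phase (chr2:10120698-10211725, plus strand), was at 211.1, 217.4, 199.6 and 198.1 CPM in SK-LMS-1 and at 309.8 and 335.0 CPM in SK-UT-1B. Its log2FC of -0.64 (SE 0.14, adjusted p = 0.00106) passed the p threshold but not the fold. Neither gene overlapped between the lines after DMSO. After the combination both overlapped, with a log2FC of -0.39 for RRM1 (SE 0.20, adjusted p = 0.149) and -0.23 for RRM2 (SE 0.17, adjusted p = 0.331), and these values turned on the SK-UT-1B combination libraries. Without 3-3 they were 0.05 and 0.02, and without 3-1 they were -0.76 (adjusted p = 0.000825) and -0.46 (adjusted p = 0.0366), past the p threshold but not the fold. RRM2B, the small subunit known from p53 responses, was at 50.2 CPM in SK-LMS-1 and 79.8 CPM in SK-UT-1B after DMSO (log2FC -0.68, adjusted p = 0.00636, under the fold). After the combination RRM2B was at 57.7 and 85.7 CPM in the same order (log2FC -0.57, adjusted p = 0.0577).

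SAMHD1 (chr20:36890229-36951893, minus strand) was at 142.0, 148.3, 143.1 and 129.4 CPM after DMSO in SK-LMS-1, against 34.8 and 38.8 CPM in SK-UT-1B. The log2FC was 1.93 (SE 0.16, 95% interval 1.59 to 2.28, adjusted p = 6.99e-09). After the combination it was at 144.2 and 137.3 CPM against 34.7 and 42.6 CPM, with a log2FC of 1.87 (SE 0.18, adjusted p = 5.10e-08). Across all exposures the SK-LMS-1 libraries lay between 127.7 and 148.3 CPM and the SK-UT-1B libraries between 34.7 and 42.6 CPM. SAMHD1 shares 1068 exonic bases with TLDC2 on the opposite strand, which had at most 38 counts.

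Of the 9 genes with a value, 2 were called higher in SK-LMS-1 after DMSO, where 17.0% of all genes tested were, and 2 were called lower (DCK and RRM1), where 14.1% were. With the p threshold alone 4 were lower (DCK, RRM1, DCTD and RRM2), where 19.5% of all genes were. After the combination the same 2 genes, CDA and SAMHD1, were higher, where 15.6% of genes were called higher, and none was called lower, where 9.88% were. DESeq2 called 3 of the 9 after the combination, with SLC29A2 as the one called lower, where it called 5749 of all 21114 genes tested. In edgeR 3 of the 9 had an unadjusted p under 0.05, where 8411 of all genes had. The median log2FC of the 9 was -0.64 after DMSO and -0.23 after the combination, against 0.00 and 0.02 over all genes tested.

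**Figure D2:**
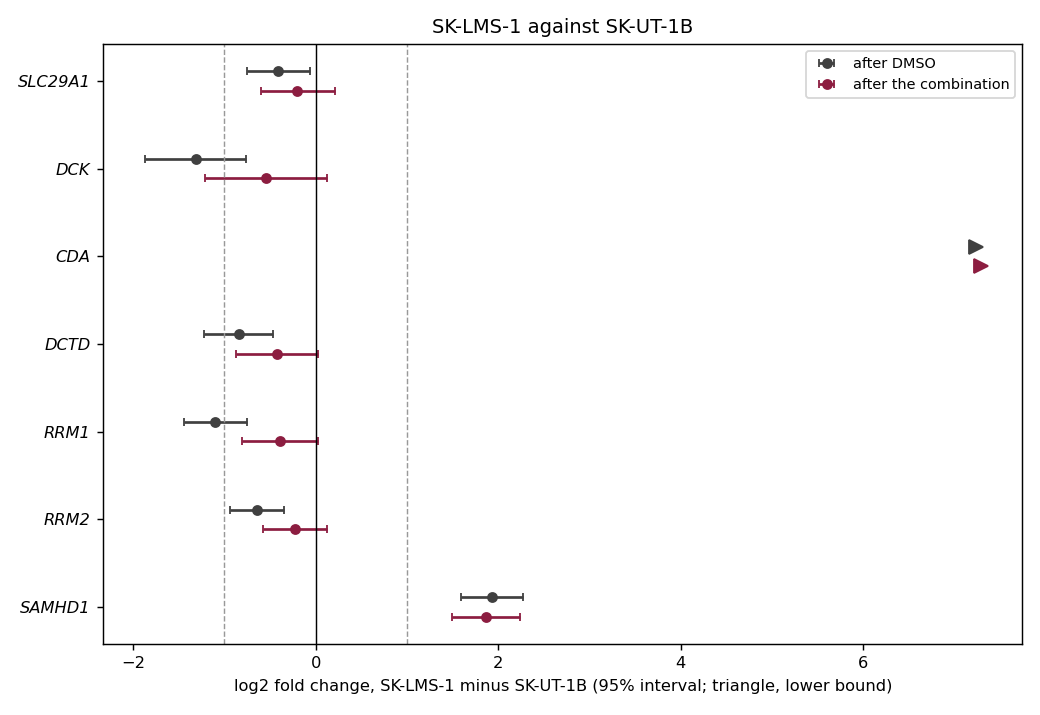
Log2FC of 7 genes, SK-LMS-1 minus SK-UT-1B (x axis), with 95% intervals from edgeR after DMSO (grey, 4 and 2 libraries) and after the combination (red, 2 and 2 libraries), and dashed lines at the fold required for a call. Triangles for CDA are lower bounds against the floor of 3 counts per library. SAMHD1 lies near 1.9 in both comparisons, while DCK, RRM1, RRM2 and DCTD lie below 0.

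The enzymes that supply and clear deoxynucleotides were mostly on the same side as RRM1. Of 12, 5 were called lower after DMSO in SK-LMS-1, where 14.1% of all genes tested were, and none higher. The median log2FC of the 12 was -0.80. Among the 5 were TYMS, thymidylate synthase (80.9 against 341.1 CPM, log2FC -2.08, adjusted p = 3.07e-08), and DCTPP1, a deoxycytidine triphosphate pyrophosphatase (8.31 against 29.8 CPM, log2FC -1.90, adjusted p = 0.00341). After the combination 3 of the 12 were called lower, where 9.88% of all genes were, and none higher. The median was then -0.59, with 3 genes positive. Of 17 S phase genes, 15 were called lower after DMSO in SK-LMS-1, with a median log2FC of -1.98. After the combination 11 were called lower, with a median of -1.25. The shares of all genes tested that were called lower were again 14.1% and 9.88%. CDC6, which loads the replicative helicase, lay 8.56-fold below its SK-UT-1B level after DMSO (adjusted p = 7.71e-10). The summed level of the 17 after DMSO was 1063 to 1151 CPM in SK-LMS-1 and 3681 and 3706 CPM in SK-UT-1B. Its part in the line difference of RRM1 and RRM2 was not tested.

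Levels between genes were compared only per length, as RPKM, which is CPM divided by exon length in kilobases. After DMSO the order in SK-UT-1B was RRM1 (84.4), RRM2 (35.2), DCTD (23.2), SLC29A1 (21.2), DCK (17.5), SAMHD1 (3.40) and SLC29A2 (2.74), with CDA, SLC28A1 and SLC28A3 at 0. Of these neighbors, SAMHD1 (3.21 to 3.58) and SLC29A2 (2.21 to 3.27) overlapped between libraries. In SK-LMS-1 the order was RRM1 (39.3), RRM2 (22.6), CDA (16.9), SLC29A1 (16.0), SAMHD1 (13.0), DCTD (12.9), DCK (7.03), SLC29A2 (0.390) and SLC28A3 (0.109). There CDA ran from 11.2 to 22.5 RPKM and overlapped with each of RRM2, SLC29A1, SAMHD1 and DCTD, so its place among them was not set by more than the spread with this length. DCTD (10.9 to 15.2) also overlapped with SLC29A1 and SAMHD1.

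The length used matters for this order. The union of all annotated exons is 9153 bases for RRM2 and 10835 for SAMHD1, while the canonical transcripts have 3258 and 4649 bases. With canonical lengths, an alternative chosen after seeing the data, RRM2 (63.4 RPKM) lay above RRM1 (53.0) in SK-LMS-1 after DMSO, and RRM1 (113.6) stayed above RRM2 (99.0) in SK-UT-1B. CDA (11.3 to 22.8 RPKM) then lay below every SK-LMS-1 DMSO library of SLC29A1 (29.9 to 34.6) and SAMHD1 (27.8 to 31.9). CDA exceeded DCK per length in each SK-LMS-1 library, by 2.51 ± 0.705 times (SD, n = 4) after DMSO, or 2.05 ± 0.577 times with canonical lengths. DCK was at 17.5 ± 1.15 RPKM after DMSO in SK-UT-1B, where CDA had no counts.

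**Figure D3:**
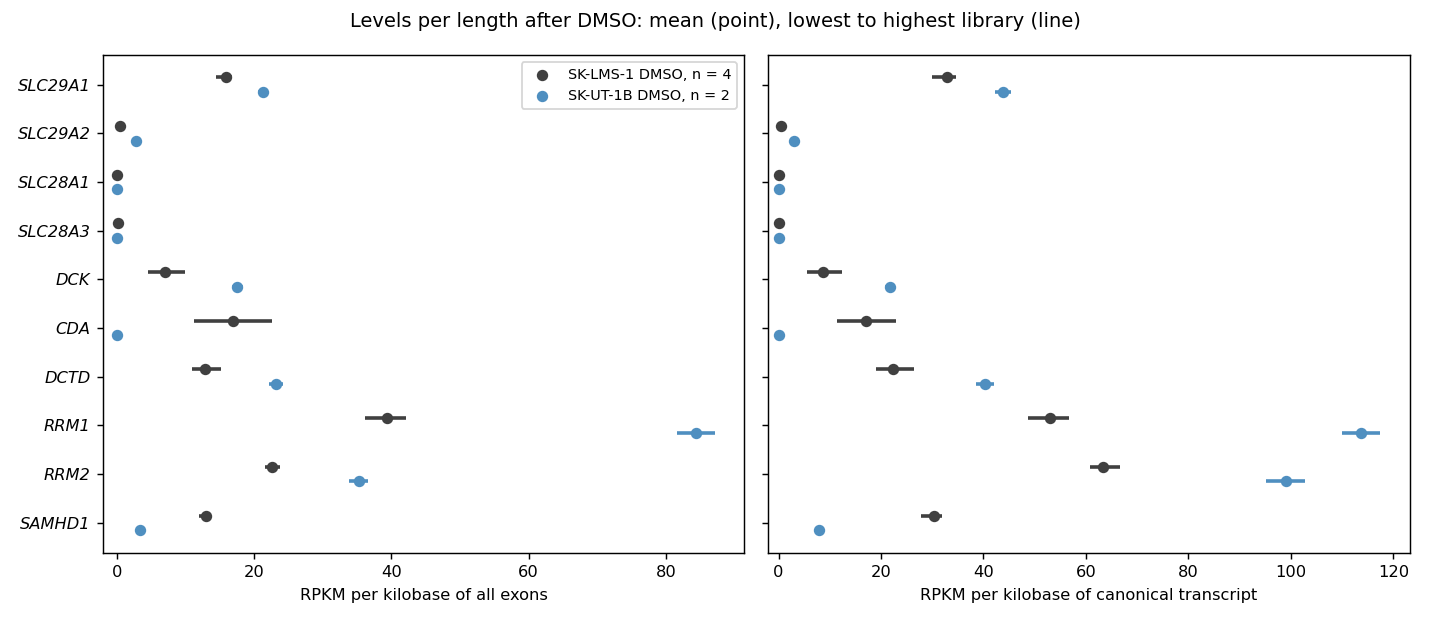
Level per length of the 10 genes after DMSO in RPKM (x axis, linear) with the length of all exons (left) or of the canonical transcript (right), as the mean (points) and the lowest to highest library (lines) in SK-LMS-1 (grey, n = 4) and SK-UT-1B (blue, n = 2). RRM1 leads in SK-UT-1B with either length, and RRM2 leads in SK-LMS-1 only with the canonical one.

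The next comparison asked how the combination changed these genes in SK-UT-1B, which received the lower gemcitabine concentration. RRM1 was at 345.5 and 368.6 CPM after DMSO and at 141.5 and 243.5 CPM after the combination. RRM2 was at 309.8 and 335.0 CPM after DMSO and at 145.8 and 200.5 CPM after the combination. For both genes the exposed libraries lay below the DMSO libraries, and library 3-1 was the lower of the pair. The log2FC (combination minus DMSO) was -0.89 for RRM1 (SE 0.20, 95% interval -1.31 to -0.48, adjusted p = 0.0417) and -0.90 for RRM2 (SE 0.17, 95% interval -1.25 to -0.54, adjusted p = 0.0139).

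Both genes passed the p threshold but not the fold, so 0 of the 7 genes with a value were called by edgeR, where 0.559% of all genes were called in either direction, and DESeq2 also called 0. The 2 that passed the p threshold were lower, where 0.251% of all genes passed it as lower. The same 2 had an unadjusted p under 0.05, where 2214 of all 21114 genes had. Their adjusted p ran from 4.02e-05 to 0.598 for RRM1 and from 5.32e-05 to 0.586 for RRM2 over the alternatives. RRM1 lost the threshold when any 1 of 11 of the 12 libraries was left out, and RRM2 only without the SK-UT-1B DMSO library 4-2. Without combination library 3-3 both were called (log2FC -1.34 and -1.15). The exposed SK-UT-1B libraries are numbered 3-1 and 3-3 and the DMSO libraries 4-1 and 4-2, so exposure and that number cannot be told apart.

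The remaining genes did not pass the test in SK-UT-1B. DCK was at 56.9 and 51.9 CPM after DMSO and at 30.7 and 42.8 CPM after the combination, without overlap, with a log2FC of -0.56 (SE 0.32, adjusted p = 0.599). SLC29A1 was at 94.4 and 88.2 CPM after DMSO and at 68.3 and 82.7 CPM after the combination (log2FC -0.27, SE 0.19, adjusted p = 0.701). DCTD (log2FC -0.18, SE 0.21) and SAMHD1 (log2FC 0.07, SE 0.17) overlapped between the groups, as did SLC29A2. CDA, SLC28A1 and SLC28A3 stayed at 0 counts, so no change could be measured for them.

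The median log2FC was -0.43 over the 12 deoxynucleotide supply genes, 11 of which were negative, and -0.62 over the 17 S phase genes, 16 of which were negative, against 0.00 over all genes tested. None of these genes was called, and none passed the p threshold. TYMS had a log2FC of -0.81 (SE 0.22, adjusted p = 0.121) and RRM2B of 0.10 (SE 0.22, adjusted p = 1). The summed level of the S phase genes was 3706 and 3681 CPM after DMSO and 2001 and 2822 CPM after the combination, with library 3-1 again the lower. Its part in the change of RRM1 and RRM2 was not tested.

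In SK-LMS-1 the combination was compared with the DMSO libraries of the same number. RRM2 was at 199.6 and 198.1 CPM after DMSO and at 150.1 and 145.9 CPM after the combination. The groups did not overlap, and the log2FC was -0.43 (SE 0.17, 95% interval -0.78 to -0.07) with an unadjusted p of 0.0211 and an adjusted p of 0.907. RRM1 was at 159.6 and 175.0 CPM and at 156.4 and 136.9 CPM in the same order (log2FC -0.19, SE 0.20). DCK had a log2FC of 0.16 (SE 0.32), since the DMSO libraries, at 14.04 and 31.0 CPM, lay on both sides of the exposed ones. CDA was at 9.17 and 13.2 CPM after DMSO and at 14.1 and 15.4 CPM after the combination (log2FC 0.40, SE 0.46, 95% interval -0.58 to 1.38). Neither edgeR nor DESeq2 called any of the 9 genes with a value, where edgeR called 0.0237% of all genes. In edgeR 1 gene, RRM2, had an unadjusted p under 0.05, where 914 of all 21114 genes had. SLC29A2 was at 57 and 2 counts after DMSO and at 0 after the combination.

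RRM2 fell in SK-LMS-1 after MK-0752 alone. RRM2 was at 211.1 and 217.4 CPM after DMSO and at 106.1 and 83.8 CPM after MK-0752, and the groups did not overlap. The log2FC of -1.17 (SE 0.17, 95% interval -1.53 to -0.82, adjusted p = 0.00226) was the only call among the 9 genes, where 0.194% of all genes were called lower and 0.251% in either direction. It was also called against all 4 DMSO libraries (log2FC -1.12, adjusted p = 0.000728) but not without MK-0752 library 2-3 (log2FC -1.01, adjusted p = 0.126).

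The other members moved less after MK-0752. SLC29A1 was at 72.1 and 69.2 CPM after DMSO and at 49.9 and 52.3 CPM after MK-0752, with a log2FC of -0.47 (SE 0.19, 95% interval -0.88 to -0.06, unadjusted p = 0.0261, adjusted p = 0.646). RRM1 was at 178.4 and 153.0 CPM and then at 121.2 and 133.6 CPM (log2FC -0.38, SE 0.20, adjusted p = 0.806). DCK was at 21.1 and 21.1 CPM and then at 12.7 and 16.5 CPM (log2FC -0.53, SE 0.32, adjusted p = 0.806). None of these 3 genes passed the test. CDA (log2FC -0.37, SE 0.46) and DCTD (log2FC 0.33, SE 0.21) did not pass either. The median log2FC of the 17 S phase genes was -0.48 after MK-0752, with 16 negative and 1 past the p threshold, and -0.12 after the combination, with 12 negative. Their summed level was 698.0 and 756.8 CPM after MK-0752 and 940.2 and 1034 CPM after the combination.

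**Figure D4:**
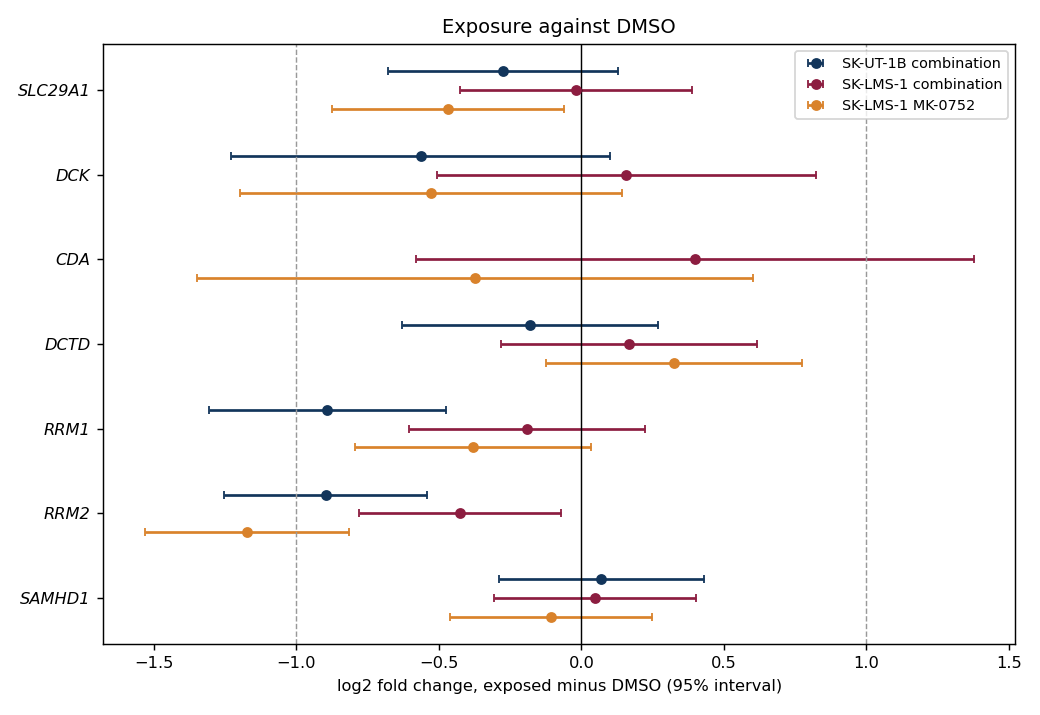
Log2FC of 7 genes, exposed minus DMSO (x axis), with 95% intervals from edgeR for the combination in SK-UT-1B (blue), the combination in SK-LMS-1 (red) and MK-0752 in SK-LMS-1 (orange), each with 2 libraries against 2, and dashed lines at the fold required for a call. CDA has no value in SK-UT-1B. RRM2 lies below 0 in all 3 comparisons, from -1.17 to -0.43.

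Whether the combination acted differently in the lines was tested by the difference of the effects (SK-LMS-1 minus SK-UT-1B), at doses that differed between the lines. The difference was 0.70 for RRM1 (SE 0.28, 95% interval 0.12 to 1.29, unadjusted p = 0.0212, adjusted p = 0.598), 0.47 for RRM2 (SE 0.24, 95% interval -0.03 to 0.97, adjusted p = 0.665) and 0.72 for DCK (SE 0.45, 95% interval -0.22 to 1.66, adjusted p = 0.741). None of the 7 genes was called by edgeR or DESeq2, where edgeR called 0.232% of all genes. In edgeR 1 of the 7 had an unadjusted p under 0.05, where 1619 of all 21114 genes had. Without SK-UT-1B combination library 3-3 the difference of RRM1 was called (1.15, adjusted p = 0.00418). Within SK-LMS-1 the effect of the combination minus that of MK-0752 was 0.75 for RRM2 (SE 0.24, 95% interval 0.25 to 1.25, unadjusted p = 0.0056, adjusted p = 0.828), 0.69 for DCK (SE 0.45) and 0.19 for RRM1 (SE 0.28). None of the 9 genes was called by edgeR or DESeq2, where edgeR called 0.0379% of all genes. In edgeR 1 of the 9 had an unadjusted p under 0.05, where 1094 of all 21114 genes had. Both differences share DMSO libraries with the comparisons above and are no separate evidence.

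The DMSO sets of SK-LMS-1 gave the background between sets of libraries. None of the 9 genes was called between set 4 and set 2 by edgeR or DESeq2, and 0 had an unadjusted p under 0.05. Over all genes edgeR called 0%, with 1197 at an unadjusted p under 0.05, and DESeq2 called 25.

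**Figure D5:**
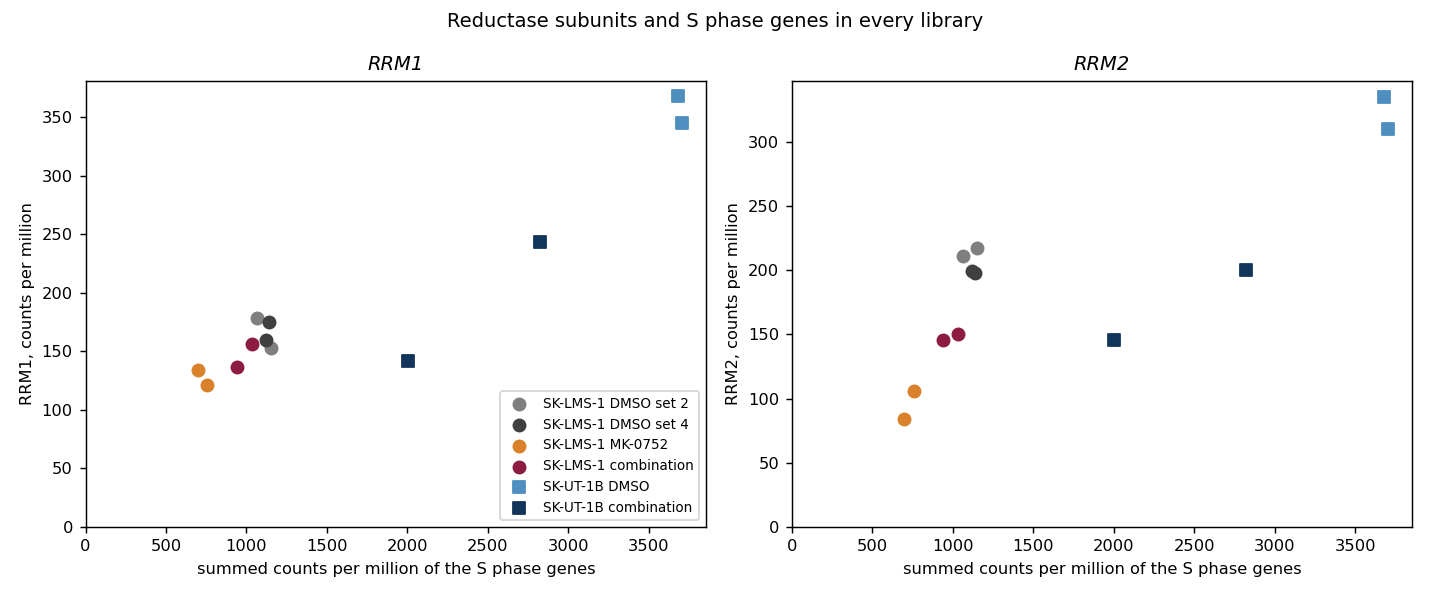
Level of RRM1 (left) and RRM2 (right) in CPM (y axis) against the summed CPM of 17 S phase genes (x axis) in the 12 libraries, with circles for SK-LMS-1 and squares for SK-UT-1B, colored by group. In each line the exposed libraries lie at lower sums than the DMSO libraries, and the SK-UT-1B libraries lie between 2001 and 3706 CPM, above all of SK-LMS-1.

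The genes whose pattern was most like that of each member were found with Pearson's correlation of log2 CPM over the 12 libraries after the mean of each line was subtracted, among 13522 genes with a mean of at least 50 counts. The libraries share lines and exposures, so the values are descriptions. For RRM2 these were CEP55 (r = 0.97), TMPO (0.96) and MKI67 (0.96), for RRM1 LRRC59 (0.96), EIF4H (0.96) and SAE1 (0.96), and for SLC29A1 E2F8 (0.94), PEF1 (0.93) and SLC7A6 (0.91). For DCK they were ACD (0.94), TP53I11 (0.91) and UBA1 (0.89), for DCTD C1orf226 (0.87), EPB41L4A (0.87) and HOMER1 (0.85), and for SAMHD1 MTMR1 (0.88), UCHL3 (0.85) and PXN-AS1 (0.85). For CDA they were CLASP2, AC005754.8 and ZNF215 (each 0.90), for SLC29A2 UNC13A (0.96), OSTN (0.90) and RABL2A (0.89), and for SLC28A3 USP6NL (0.91), ZNF876P (0.90) and TUB (0.90). CDA and SLC28A3 were at 0 in SK-UT-1B, so only the 8 SK-LMS-1 libraries shaped their values. Among the members themselves the pairs with the highest values were SLC29A1 with RRM2 (0.81) and RRM1 with RRM2 (0.80), and SAMHD1 with DCTD was at -0.62.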

How the data were processed

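RNA was sequenced from 12 libraries of SK-LMS-1 and SK-UT-1B. Per the labels and the study's methods, total RNA was depleted of ribosomal RNA and made into libraries with a stranded kit. The authors trimmed single-end reads (Trim Galore 0.3.7), aligned them to hg38 and counted them per gene (STAR 2.7.9a), and removed ribosomal reads with SortMeRNA. Treatments had been selected for sequencing by a fall of HES1, a Notch target. The submitters' processing notes also name DESeq2 1.42.0. The deposited values are raw counts of reads per gene, without normalization. The annotation, the strand setting and any removal of duplicates are not given in the sources used here. Each count column was assigned to a sample by its name. The 4 SK-UT-1B columns carry the line's name, while the 8 others carry the rest of an SK-LMS-1 title without the line, and were taken as SK-LMS-1 because every SK-UT-1B sample had a column of its own.

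Of the 60649 genes, 60507 matched GENCODE v44, which gave coordinates, overlaps and exon lengths on hg38. The labels gave 6 groups of 2, by line and exposure, with the DMSO libraries of SK-LMS-1 split by their leading number. Genes were tested with edgeR 4.0.16 (R 4.3.3, limma 3.58.1) by its robust quasi-likelihood test, fitted to all 12 libraries after filterByExpr and TMM, and p-values were Benjamini-Hochberg adjusted over 21114 genes. All p-values are two-sided. Folds against a group at or under 3 counts in each library are bounds from mean CPM over the mean of 3 counts per library. The script was tested on simulated data.

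All 10 members are named, with the called genes of the wider lists (at most 3 of the largest log2FC per list) and RRM2B, CMPK1, NT5C2, NT5C3A and TYMS. Of the genes so named, 1 called gene is not reported here. The members and lists were chosen with earlier results of these data known. The alternatives were DESeq2 1.42.0, its size factors in edgeR, a filter of 1 count or of 50 mean counts, the libraries of a comparison alone, pooled DMSO sets, a replicate block, each library left out, TPM, and canonical transcript lengths (chosen after seeing the data). Promoter sequences are from RefSeq. Protein sequences were not used here.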

Additional observations from a re-analysis of the deposited data

How the results depend on the processing

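The 4 calls between the lines after DMSO (CDA, SAMHD1, DCK and RRM1) and those of CDA and SAMHD1 after the combination kept their direction and their side of the threshold under every alternative run. Of the low genes, SLC29A2 did not, with log2FC from -6.80 to -2.33 after DMSO and called in 2 alternatives, and called after the combination in 4 of 5 alternatives and 5 of 12 fits with 1 library left out. For the combination in SK-UT-1B, the number of members past the p threshold fell from 2 to 1 with a mean of at least 50 counts and to 0 with only the libraries of the comparison, and ran from 0 to 2 when libraries were left out, while the number called ran from 0 to 2. With libraries left out, the members called ran from 0 to 1 after MK-0752 (1 with all libraries) and from 0 to 1 in the difference of the combination effects (0 with all libraries). With no filter beyond 1 count, 1 member, SLC29A2, was called after the combination in SK-LMS-1, where 73 of 30051 genes were called. Among the log2FC of members given in the text, directions turned only for uncalled values. With libraries left out these ran from -0.759 to 0.052 for RRM1 and from -0.464 to 0.021 for RRM2 between the lines after the combination, from -0.086 to 0.18 for SAMHD1 after the combination in SK-UT-1B, and from -0.30 to 0.84 for DCK after the combination in SK-LMS-1. Canonical lengths moved RRM2 over RRM1 from 0.577 to 1.20 in SK-LMS-1 and from 0.417 to 0.871 in SK-UT-1B, since the lengths differ by gene, and TPM gives the same ratios by construction. The cause of the other changes was not tested. Library numbers 4-1 and 4-2 are shared by DMSO and combination in SK-LMS-1, where a replicate block gave 0 members called (RRM2 log2FC -0.43) and 2 genes called in all against 5 without it, 32 against 49 for the difference of the combination effects. DESeq2 called more genes than edgeR in all, 313 against 118 for the combination in SK-UT-1B, 29 against 5 in SK-LMS-1, 109 against 53 after MK-0752, and 130 against 49 and 35 against 8 for the differences. The deviations of libraries 4-1 and 4-2 had a correlation of 0.00 over 13522 genes in 2 pairs, and the numbers were not taken to pair the libraries. With only 2 libraries per group this check cannot settle pairing. Number 2-3 is also shared, by DMSO and MK-0752 in SK-LMS-1, and pairing was not examined there. Depth limits SLC28A1, SLC28A3 and CDA in SK-UT-1B, where 0 counts allow up to 0.107 CPM.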
